A study of Homo sapiens with 8 samples.

Results

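A group of 10 known targets of the tumour suppressor p53 was followed by gene name: MDM2, ZMAT3, TP53INP1, FAS, GDF15, SESN1, SESN2, TIGAR, FDXR and TP53I3, which are 10 of the 28265 genes in the count tables. They were not picked by a threshold on their values, but they were chosen with earlier results of these data known. Shares over all genes are therefore set beside their counts as description, and the list was not tested. All 10 had enough reads to enter the fit of every comparison.

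The cells were IMR90, primary human fetal lung fibroblasts, all of low passage. Inflachromene (ICM), a small molecule that binds the chromatin proteins HMGB1 and HMGB2, was given at 10 µM for 3 or 6 days. The 8 libraries fell into 4 conditions of 2 libraries each: control (wild type cells, titled young and not said to have received vehicle), ICM 3 days, ICM 6 days and MetaICM. The sources used here give no meaning, dose or duration for the label MetaICM, so it is used as a name only. The titles and the study's methods call the assay factory RNA-Seq, which sequences nascent RNA still attached to transcription factories, whereas the sample records describe poly(A)+ selection. Nothing says that the libraries of a condition came from separate cultures, so the p-values measure the spread between libraries, which may be technical.

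p53 is kept low in unstressed cells because MDM2, an E3 ubiquitin ligase whose gene p53 itself switches on, marks it for degradation. When damage or stress blocks that loop, p53 binds its response elements and transcribes genes that halt the cell cycle, repair or limit oxidative damage, restrain growth signalling or prime cells for death. In fibroblasts this programme is best known for holding arrested and senescent cells out of the cycle.

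A p53 response element consists of a pair of half-sites, each with 3 purines, a C, 2 bases that are A or T, a G and 3 pyrimidines. The hg19 (GRCh37) sequence within 2500 bases of each gene's annotated start was searched for 2 adjacent half-sites without a spacer, a motif of 20 bases that reads alike on both strands. Of 27479 genes searched, 12.2% held a match with at most 2 mismatches, and so did 5 of the 10 targets. These 5 matches are shown on the gene's own strand, with CDKN1A, the gene of the arrest factor p21, for comparison, because they are the matches nearest to the sequence that p53 is known to recognise. Capitals mark the bases that match the consensus and lower case marks mismatches. CDKN1A held another match with 2 mismatches, in an intron (chr6:36645108-36645127), which is not shown. A gene's annotated start is the outermost end of its listed exons, which need not be its most used start.
ZMAT3, chr3:178787976-178787995, minus strand, intron: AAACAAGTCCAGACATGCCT
MDM2, chr12:69202703-69202722, plus strand, intron: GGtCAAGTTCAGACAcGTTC
FAS, chr10:90751066-90751085, plus strand, intron: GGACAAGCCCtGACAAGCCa
GDF15, chr19:18496118-18496137, plus strand, upstream of the gene: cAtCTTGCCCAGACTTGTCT
TP53I3, chr2:24309651-24309670, minus strand, upstream of the gene: AtACATcCTCAGACATGTTT
CDKN1A, chr6:36644226-36644245, plus strand, across the annotated start: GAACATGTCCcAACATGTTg
The ZMAT3 match had 0 mismatches, which was true of 24 genes (0.0873% of those searched). The best matches of SESN2, TIGAR and FDXR had 3 mismatches, as did that of TP53INP1, and that of SESN1 had 4. At 3 mismatches the motif is found near 67.8% of genes. A match is a description of letters, not evidence of binding, and elements with a spacer, a longer repeat or a more distant position were not searched.

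Total counts ran from 12095123 to 23166405 read pairs on exons per library, with a median of 18642269, and each library correlated best with the other of its condition. Levels are counts scaled to library size (CPM) with edgeR's TMM factors, so they are relative to all RNA counted, and fewer cells of a type cannot be told apart from less RNA per cell. Of 13 fibroblast markers, 12 reached 1 CPM in every condition, with S100A4 the exception, and their summed level was 60860 to 67460 CPM in control, 30670 to 31790 after 3 days, 24520 to 24700 after 6 days and 40680 to 44050 in MetaICM. None of 7 epithelial markers reached 1 CPM. Of 5 endothelial markers VWF and TEK reached it in every condition and KDR in all but MetaICM, with sums of 185 to 195 CPM in control, 130.5 to 134 after 3 days, 165 to 198 after 6 days and 220.5 to 234 in MetaICM, nearly all from TEK (125 to 231 CPM), while PECAM1 and CDH5 had 9 counts or fewer in any library. Of 6 leukocyte markers CD68 reached 1 CPM in every condition, CD14 after 3 days and in MetaICM and PTPRC after 6 days, with sums of 5.14 to 6.54 CPM in control, 18.1 to 22.3 with ICM and 14.3 to 14.8 in MetaICM, CD3E had 0 counts, and CD68 lay at 4.23 to 5.35 CPM in control, 16 to 20.5 CPM with ICM and 12.7 to 13.1 CPM in MetaICM. The 5 proliferation genes listed (MKI67, TOP2A, CDK1, CCNB1 and PLK1) summed to 1579 to 1676 CPM in control, 99.1 to 119 after 3 days, 76 to 81.1 after 6 days and 839 to 850 in MetaICM. The part of these shifts in the results on p53 targets was not tested.

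Most of the p53 targets were higher with ICM than in control and 1 was lower. After 3 days, 7 of the 10 rose against control and SESN2 fell, where a gene counts as changed with an adjusted p-value under 0.05 and a log2 fold change (log2FC) beyond 0.6 in size. In the same comparison 8.85% of 15692 genes rose and 13.2% fell. The median log2FC of the 10 was 0.90, against 0.009 over all genes, and in no comparison did the median over all genes lie further than 0.009 from 0. After 6 days, 7 rose and SESN2 fell again, where 13.3% of 15950 genes rose and 17.2% fell, and the median of the 10 was 0.95. The comparisons share their control libraries, so their likeness is not independent evidence. FDXR (1.72 and 1.47) and MDM2 (1.54 and 1.68) rose at both times, and TP53INP1 was not called at either. GDF15 was at 1.44 and 1.83, but its 3-day value was 0.76 without control replicate 2, below TP53I3, which was then at 1.12.

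**Figure D1:**
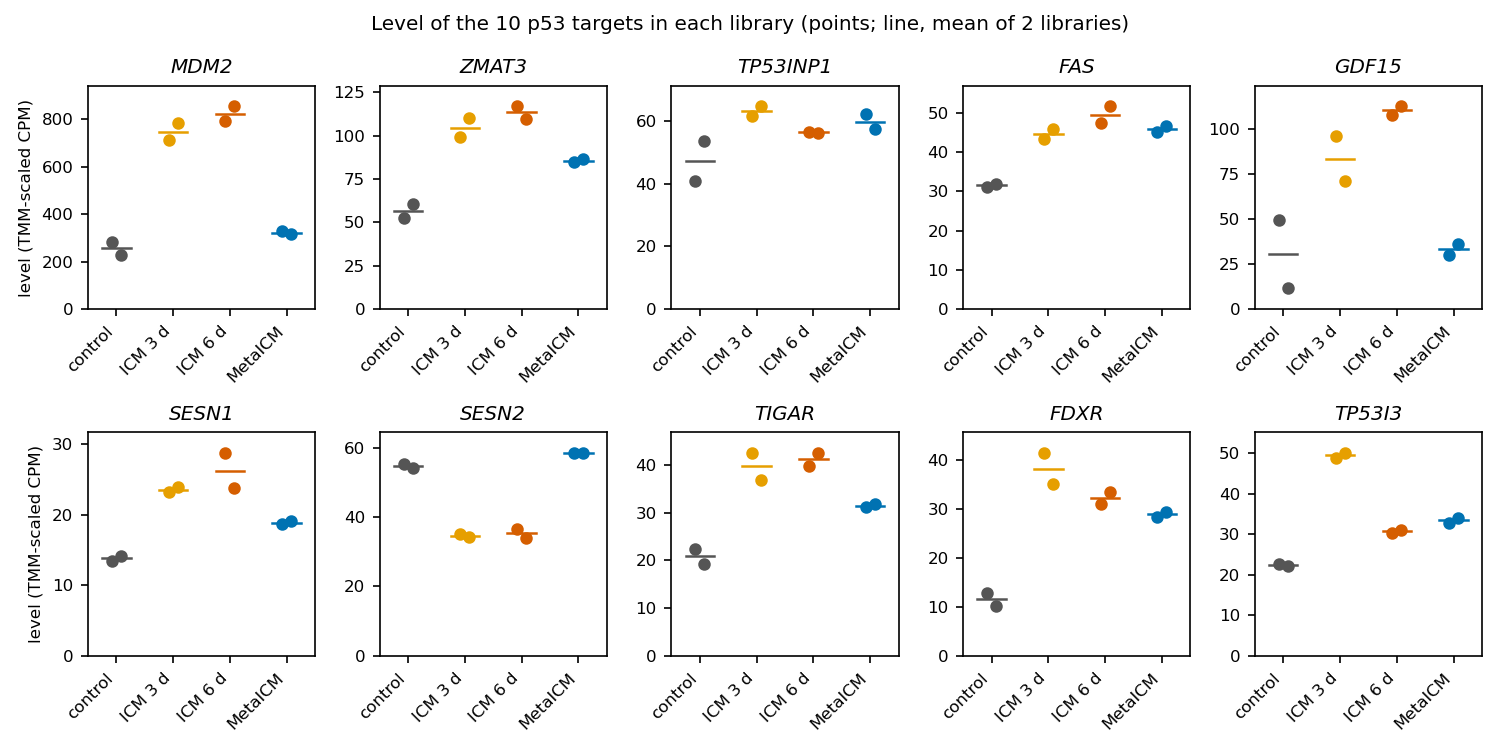
Level of each p53 target in each of the 8 libraries (points, CPM after TMM scaling, each axis from 0), with lines at the mean of the 2 libraries of a condition. MDM2 lies at 712 to 856 CPM in the 4 ICM libraries and at 229.9 to 330.1 CPM in the others, whereas SESN2 lies lower in ICM, at 34.0 to 36.7 CPM against 54.1 to 58.6 CPM.

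MDM2 closes the negative loop on p53 and lies on chromosome 12 (69201952 to 69244464, plus strand). It was counted at 283 and 229.9 CPM in control, 711.9 and 786.4 after 3 days of ICM, 794.2 and 855.6 after 6 days, and 330.1 and 315 in MetaICM. The 4 ICM libraries were thus far above the rest, and MetaICM lay just above control without overlap. The log2FC against control was 1.54 ± 0.14 (standard error, adjusted p = 5.44e-06) after 3 days and 1.68 ± 0.13 (adjusted p = 4.01e-06) after 6 days, or 2.91-fold and 3.21-fold. Between the times it moved by 0.14 ± 0.09 (adjusted p = 0.313), and MetaICM did not pass against control (0.33 ± 0.12, adjusted p = 0.0741). MetaICM was 2.31-fold below 3 days (log2FC −1.21 ± 0.09, adjusted p = 5.16e-08) and 2.56-fold below 6 days (−1.35 ± 0.08, adjusted p = 3.08e-12). CDKN1A, the other classic target, read 137 and 95.3 CPM in control, 645 to 803 over the ICM libraries and 365 and 392 in MetaICM. Its MetaICM level passed the test against control (log2FC 1.69 ± 0.16, adjusted p = 0.000133).

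ZMAT3 encodes a zinc finger protein that binds RNA and acts in growth control, and lies on chromosome 3 (178735013 to 178790301, minus strand). Its libraries read 52.8 and 60.8 CPM in control, 99.4 and 110 after 3 days, 117 and 109.9 after 6 days, and 84.7 and 86.5 in MetaICM. The ICM libraries of both times overlapped each other and none overlapped control or MetaICM. The log2FC was 0.88 ± 0.13 after 3 days (adjusted p = 0.000443), 0.99 ± 0.12 after 6 days (adjusted p = 0.000112) and 0.59 ± 0.12 in MetaICM (adjusted p = 0.00552), the last just under the fold threshold. MetaICM was lower than 6 days by a log2FC of −0.41 ± 0.07 (adjusted p = 7.46e-05), also under that threshold.

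GDF15 encodes a secreted stress cytokine of the TGF-β family and lies on chromosome 19 (18496968 to 18499986, plus strand). Its control libraries did not agree, at 49.3 CPM (829 counts) and 11.5 CPM (139 counts), while 3 days of ICM gave 96.2 and 71.0, 6 days 108.2 and 112.8, and MetaICM 30.1 and 36.5. All 4 ICM libraries were above both controls, and both MetaICM libraries fell between the controls. The log2FC was 1.44 ± 0.42 after 3 days (adjusted p = 0.0227) and 1.83 ± 0.43 after 6 days (adjusted p = 0.00652). These standard errors were the largest of the 10 targets, and the size rests on the control library chosen: without control replicate 1 the 3-day value was 2.86 and without control replicate 2 it was 0.76. DESeq2 did not call either (adjusted p = 0.306 and 0.122). The difference between ICM and MetaICM does not use control. MetaICM was 3.31-fold below 6 days (log2FC −1.73 ± 0.09, adjusted p = 4.67e-13) and 2.51-fold below 3 days (−1.33 ± 0.13, adjusted p = 1.84e-06).

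FAS, the death receptor that triggers apoptosis when bound by its ligand, lies on chromosome 10 (90750555 to 90776816, plus strand). It read 31.1 and 31.9 CPM in control, 43.4 and 45.9 after 3 days, 47.4 and 51.7 after 6 days, and 45.2 and 46.6 in MetaICM. Every library other than control was above both controls, and the 3-day and MetaICM libraries overlapped. The log2FC was 0.50 ± 0.14 after 3 days (adjusted p = 0.017), 0.65 ± 0.12 after 6 days (adjusted p = 0.00204) and 0.54 ± 0.12 in MetaICM (adjusted p = 0.00859), so 1 of the 3 passed both thresholds. Without ICM 6 days replicate 2 the 6-day value was 0.58 and lost its call. Of its 3892 exon bases, 196 are shared with the antisense gene FAS-AS1, and pairs were counted without regard to strand.

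TP53INP1 encodes a nuclear protein that takes part in p53-dependent arrest, death and autophagy. It read 40.8 and 53.5 CPM in control, 61.7 and 64.7 after 3 days, 56.6 and 56.1 after 6 days, and 62.2 and 57.5 in MetaICM. All ICM and MetaICM libraries were above the controls, which lay further apart than the libraries of any other condition. The log2FC was 0.42 ± 0.15 after 3 days (adjusted p = 0.0585), 0.26 ± 0.15 after 6 days (adjusted p = 0.181) and 0.34 ± 0.14 in MetaICM (adjusted p = 0.0939), none past the test. Without control replicate 2, the higher of the pair, the 3-day value became 0.63 and was called.

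The sestrins take part in the control of oxidative stress and of the growth kinase complex mTORC1, and SESN1 and SESN2 went opposite ways. SESN1, on chromosome 6 (109305512 to 109416049, minus strand), read 13.4 and 14.2 CPM in control, 23.2 and 23.9 after 3 days, 28.8 and 23.8 after 6 days, and 18.6 and 19.1 in MetaICM. SESN2, on chromosome 1 (28586029 to 28609002, plus strand), read 55.4 and 54.1 CPM in control, 35.1 and 34.2 after 3 days, 36.7 and 34.0 after 6 days, and 58.6 in both MetaICM libraries. For SESN1 the order was control, MetaICM, then ICM, and for SESN2 ICM lay below all other libraries. SESN1 rose by a log2FC of 0.77 ± 0.16 after 3 days (adjusted p = 0.00348) and 0.93 ± 0.15 after 6 days (adjusted p = 0.000898), and was at 0.45 ± 0.14 in MetaICM (adjusted p = 0.0377), under the fold threshold. SESN2 fell by 0.66 on the log2 scale after 3 days (standard error 0.13, adjusted p = 0.00298) and by 0.64 after 6 days (standard error 0.12, adjusted p = 0.00192).

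Both SESN2 decreases lie close to the fold threshold and were −0.59 when libraries were scaled to their totals, which is outside the call. The difference from MetaICM did not involve control and was of similar size. SESN2 was 1.7-fold higher in MetaICM than after 3 days (log2FC 0.76 ± 0.09, adjusted p = 1.15e-05) and 1.66-fold higher than after 6 days (0.73 ± 0.08, adjusted p = 1.44e-07). MetaICM itself did not pass against control (0.09 ± 0.11, adjusted p = 0.551). SESN3, the remaining sestrin and part of the wider list of p53 targets below, was not called. It was at 0.44 ± 0.17 after 3 days (adjusted p = 0.0719) and 0.50 ± 0.15 after 6 days (adjusted p = 0.0228). Of the 6100 exon bases of SESN1, 225 are shared with CEP57L1 on the other strand.

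TIGAR encodes an enzyme that lowers fructose bisphosphate levels and diverts glucose towards the pentose phosphate pathway, and lies on chromosome 12 (4430379 to 4469190, plus strand). It read 22.4 and 19.2 CPM in control, 42.6 and 36.8 after 3 days, 39.8 and 42.5 after 6 days, and 31.2 and 31.8 in MetaICM. MetaICM fell between control and ICM without overlapping either, while both ICM times overlapped. The log2FC was 0.93 ± 0.16 after 3 days (adjusted p = 0.000838), 0.98 ± 0.14 after 6 days (adjusted p = 0.000283) and 0.59 ± 0.13 in MetaICM (adjusted p = 0.00988).

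FDXR, ferredoxin reductase, passes electrons to mitochondrial ferredoxins and lies on chromosome 17 (72858619 to 72869119, minus strand). It read 12.9 and 10.2 CPM in control, 41.5 and 35.0 after 3 days, 31.1 and 33.4 after 6 days, and 28.4 and 29.4 in MetaICM. Every library other than control was above both controls by a wide margin. FDXR was the 1 target called against control in each of ICM 3 days, ICM 6 days and MetaICM. The log2FC against control was 1.72 ± 0.17 after 3 days (adjusted p = 1.51e-05), 1.47 ± 0.16 after 6 days (adjusted p = 4.55e-05) and 1.31 ± 0.15 in MetaICM (adjusted p = 0.000439), or 3.29-fold, 2.77-fold and 2.48-fold. MetaICM was below 3 days by −0.41 ± 0.11 (adjusted p = 0.00697), under the fold threshold, and did not pass against 6 days (−0.16 ± 0.09, adjusted p = 0.139).

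TP53I3, also called PIG3, encodes a quinone oxidoreductase linked to oxidative stress and lies on chromosome 2 (24300303 to 24308085, minus strand). It read 22.7 and 22.2 CPM in control, 48.9 and 50.1 after 3 days, 30.3 and 31.1 after 6 days, and 32.9 and 34.1 in MetaICM. The 3-day libraries stood above all others, and the 6-day and MetaICM libraries sat close together above control. It rose by a log2FC of 1.14 ± 0.14 after 3 days (adjusted p = 7.29e-05) and was at 0.45 ± 0.13 after 6 days (adjusted p = 0.0182) and 0.57 ± 0.12 in MetaICM (adjusted p = 0.00826), both under the fold threshold. The drop from 3 to 6 days was itself tested at −0.69 ± 0.10 (adjusted p = 8.91e-05), or 1.62-fold. FAM228B on the other strand shares 80 of its 2034 exon bases.

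**Figure D2:**
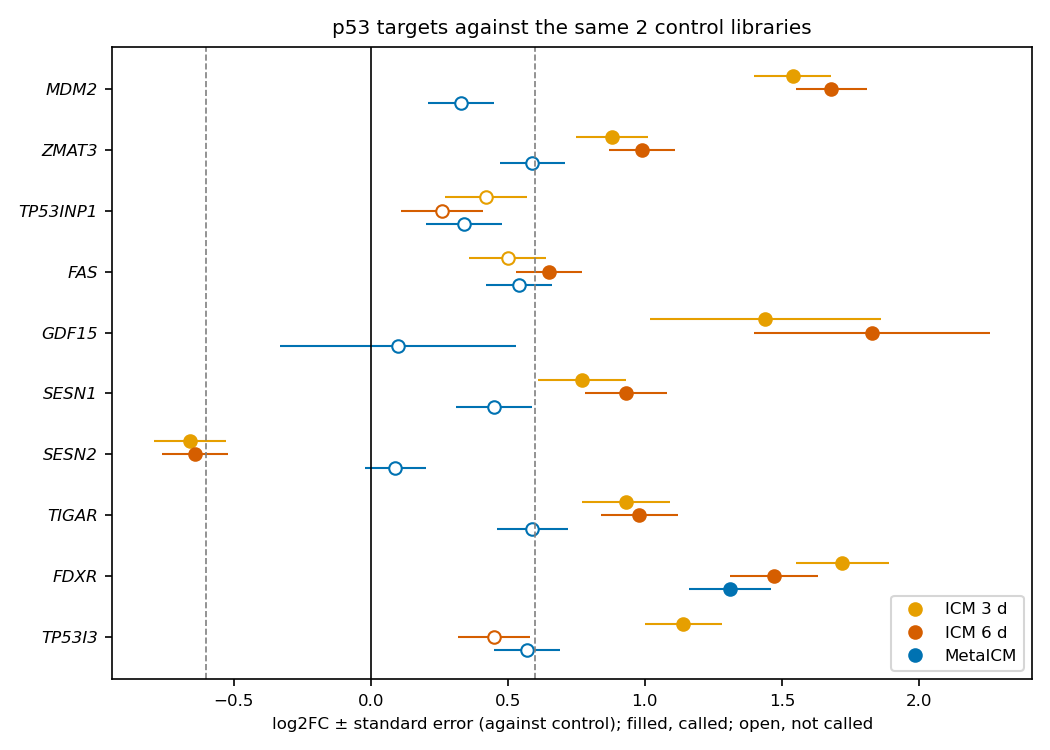
Log2FC of each p53 target against the same 2 control libraries (points, with bars of 1 standard error) after ICM for 3 days, ICM for 6 days and in MetaICM. Filled points were called, dashed lines mark a log2FC of 0.6 in size, and FDXR is filled in all 3 while SESN2 lies at −0.66 and −0.64 with ICM and at 0.09 in MetaICM.

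Levels can be compared between genes only per length, as CPM per kilobase of exon. In control MDM2 (20.2 ± 2.95, SD, n = 2) lay above SESN2 (15.8 ± 0.275), and SESN1 (2.26 ± 0.0837) and TIGAR (2.53 ± 0.271) were the lowest. GDF15 has no sure place in that order, since its control libraries read 41.1 and 9.6. After 6 days GDF15 reached 92.1 ± 2.71 and MDM2 64.9 ± 3.41 per kilobase, while SESN2 was at 10.2 ± 0.557. MDM2 then ranked 614 of the 14263 genes with at least 1 CPM, against 2311 of 14562 in control. FDXR went from rank 8098 in control to 3143 of 14337 after 3 days, whereas SESN2 went from 3050 to 4806.

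**Figure D3:**
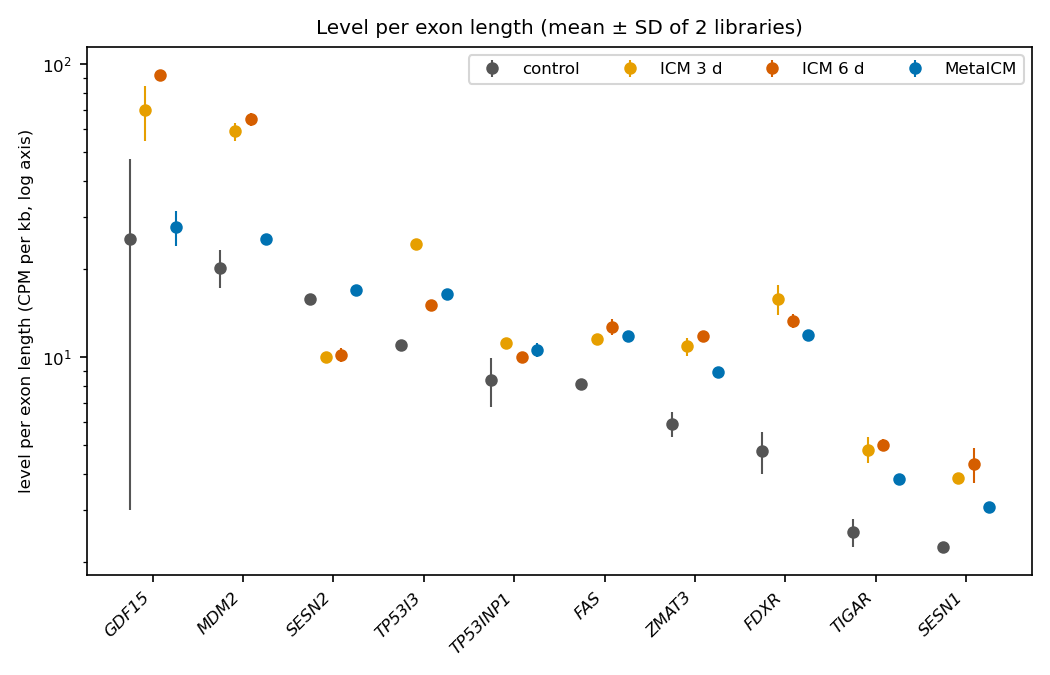
Level per exon length of each p53 target (CPM per kilobase, log axis) in the 4 conditions, as the mean of 2 libraries with bars of 1 SD. The means of GDF15 and MDM2 are the highest in each condition and that of SESN1 the lowest, but the GDF15 control bar, 22.3 around 25.3, spans the levels of several other genes.

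In MetaICM, 1 of the 10 targets, FDXR, was called higher than control and 0 were called lower by edgeR or DESeq2 (0 lower also at an unadjusted p under 0.05), where 7.41% of 15904 genes rose and 8.99% fell. All 10 had a positive log2FC (0.09 to 1.31) with a median of 0.49, against −0.001 over all genes. ZMAT3, TIGAR and TP53I3 sat at 0.59, 0.59 and 0.57, just under the fold threshold, and the count rose to 3 with DESeq2 and to 4 with library totals or with all genes that had a count. GDF15 spanned zero: it was at 0.10 ± 0.43 (adjusted p = 0.879), at 1.53 without control replicate 1 and at −0.57 without control replicate 2.

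From 3 to 6 days of ICM the targets changed little, apart from TP53I3. It was the 1 target called lower, and 0 were called higher by edgeR or DESeq2 (1 higher at an unadjusted p under 0.05), where 4.54% of 15845 genes fell and 3.53% rose, and the median of the 10 was 0.08. GDF15 was higher at 6 days by 0.39 ± 0.11 (adjusted p = 0.0209), under the fold threshold. In the fit of all 8 libraries the same GDF15 difference (0.40) had an adjusted p of 0.491. FDXR was at −0.26 ± 0.11, TP53INP1 at −0.17 ± 0.10, SESN1 at 0.16 ± 0.12, FAS at 0.15 ± 0.10, MDM2 at 0.14 ± 0.09, ZMAT3 at 0.11 ± 0.09, TIGAR at 0.04 ± 0.11 and SESN2 at 0.02 ± 0.11. Their adjusted p-values of 0.127 and above do not show that they were equal.

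Between MetaICM and ICM, MDM2 and GDF15 were lower in MetaICM and SESN2 higher, at both times. Against 6 days, 2 targets fell and 1 rose, where 12% of 16036 genes fell and 15.7% rose, and the median of the 10 was −0.27. Against 3 days, again 2 fell and 1 rose, where 10.3% of 16209 genes fell and 13.1% rose, with a median of −0.32. These counts are not far from the shares over all genes, and the comparisons share the MetaICM libraries. The rest of the targets did not pass both thresholds. Against 6 days SESN1 (−0.48 ± 0.11, adjusted p = 0.000661), ZMAT3 (−0.41 ± 0.07) and TIGAR (−0.39 ± 0.08, adjusted p = 0.000601) were under the fold threshold, FAS was at −0.11 ± 0.08 (adjusted p = 0.263), TP53I3 at 0.13 ± 0.09 and TP53INP1 at 0.09 ± 0.08. Against 3 days TP53I3 was at −0.56 ± 0.09 (adjusted p = 0.000241), TIGAR at −0.33 ± 0.10 (adjusted p = 0.017), SESN1 at −0.31 ± 0.11 (adjusted p = 0.0319) and ZMAT3 at −0.28 ± 0.09 (adjusted p = 0.0159), all under the fold threshold. TP53INP1 was there at −0.07 ± 0.09 (adjusted p = 0.54) and FAS at 0.05 ± 0.09 (adjusted p = 0.717).

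**Figure D4:**
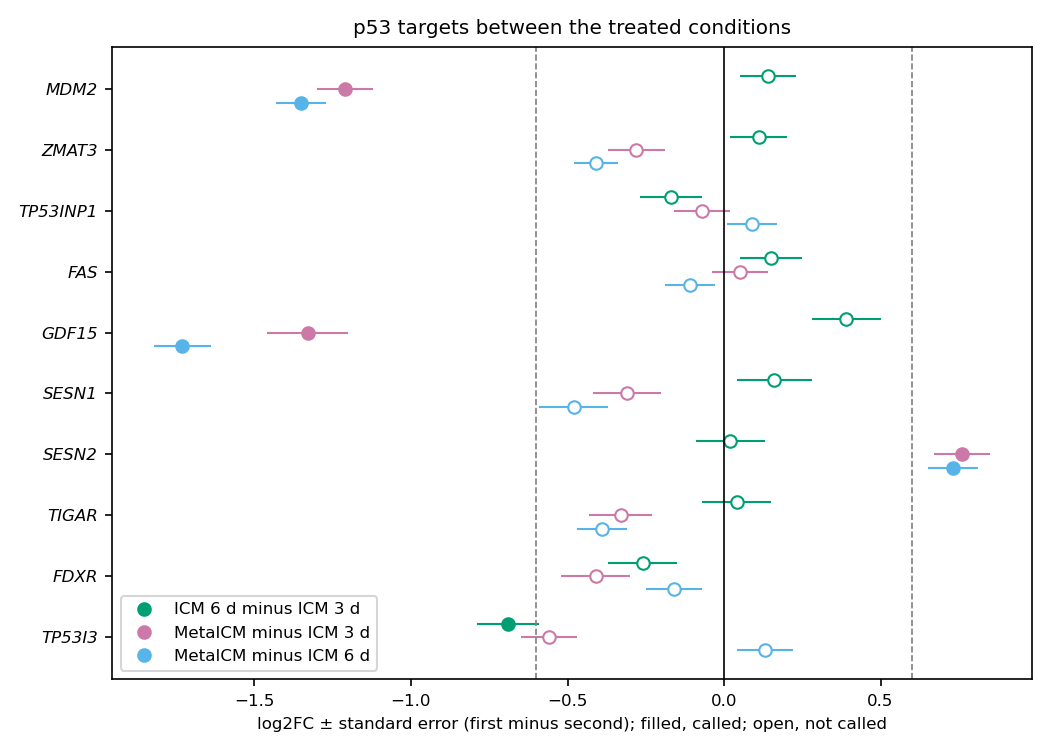
Log2FC of each p53 target between the conditions other than control, first minus second (points, with bars of 1 standard error). Filled points were called and dashed lines mark 0.6 in size. MDM2 and GDF15 lie at −1.73 to −1.21 for MetaICM minus ICM, SESN2 at 0.73 and 0.76, and TP53I3 at −0.69 for 6 minus 3 days.

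A wider list of 44 genes, nearly all p53 targets of general knowledge, also shifted upwards. After 3 days 20 of the 44 rose and 0 fell by edgeR (median log2FC 0.57), with 3 lower at an unadjusted p under 0.05 and 19 and 0 by DESeq2, and after 6 days 20 rose and 2 fell (median 0.55). The 20 are 45.5% of the list, where 8.85% of all genes rose after 3 days and 13.3% after 6 days, and 13.2% and 17.2% fell. The highest at both times included CDKN1A, at 2.63 ± 0.18 and 2.77 ± 0.16, and SPATA18, a mitochondrial quality control gene, at 1.96 ± 0.19 (adjusted p = 1.1e-05) and 1.99 ± 0.18 (adjusted p = 1.46e-05). The receptors TNFRSF10C (1.81 ± 0.46 after 3 days, adjusted p = 0.0119) and TNFRSF10D (1.97 ± 0.13 after 6 days, adjusted p = 1.13e-06), decoys for the death ligand TRAIL, completed the top of each list. STEAP3 (−0.71 ± 0.15, adjusted p = 0.00291) and EPS8L2 (−0.63 ± 0.15, adjusted p = 0.00768) were the 2 that fell after 6 days.

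In MetaICM 17 of the 44 (38.6%, where 7.41% of all genes rose and 8.99% fell) rose against control and 0 fell by edgeR (median 0.46; 1 lower at an unadjusted p under 0.05, and 16 and 0 by DESeq2), with CDKN1A at 1.69, SPATA18 at 1.54 ± 0.17 (adjusted p = 0.00039) and the antiproliferative BTG2 at 1.40 ± 0.20 (adjusted p = 0.00137) on top. Against 6 days of ICM, 6 of the 44 were higher and 8 lower in MetaICM (median 0.04). These 13.6% and 18.2% are near the 15.7% and 12% of all genes, so the genes named are values and say nothing particular to the list. ABHD4 (−1.76 ± 0.09, adjusted p = 1.01e-12), CDKN1A (−1.08 ± 0.08, adjusted p = 1.07e-10) and TNFRSF10D (−1.04 ± 0.07, adjusted p = 1.07e-10) were the lowest. FUCA1 (1.56 ± 0.43, adjusted p = 0.00418), STEAP3 (1.45 ± 0.08, adjusted p = 4.92e-12) and the death gene BBC3 (0.99 ± 0.21, adjusted p = 0.000448) were the highest. Against 3 days, 4 (9.09%, where 13.1% of all genes were higher) were higher, led by STEAP3, PMAIP1 and DRAM1 (0.82, 0.80 and 0.74), and 6 (13.6%, where 10.3% were lower; 4 by DESeq2) were lower, led by ABHD4, CDKN1A and NINJ1 (−1.63, −0.93 and −0.78). From 3 to 6 days of ICM, PANK1 rose (0.78 ± 0.20, adjusted p = 0.00922) and 5 fell (3 by DESeq2), led by EPS8L2 (−1.18), NINJ1 (−0.93) and BBC3 (−0.84). The rise is 2.27% of the list and the falls are 11.4%, where 3.53% of all genes rose and 4.54% fell.

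Of 20 genes that act on p53 or are related to it, 19 were tested. After 3 days 0 rose by edgeR or DESeq2 (3 higher at an unadjusted p under 0.05) and 1 fell, CHEK1 (−0.64 ± 0.15, adjusted p = 0.0065), a checkpoint kinase. After 6 days TP53BP1 rose (0.64 ± 0.11, adjusted p = 0.000846), and CHEK1 (−0.84), MDM4 (−0.68 ± 0.16, adjusted p = 0.00636) and SIRT1 (−0.66) fell. Those 5.26% and 15.8% of the tested list are no higher than the 13.3% and 17.2% of all genes, and after 3 days 8.85% and 13.2% of all genes were called. MDM4, the partner of MDM2 in restraining p53, read 105 and 150 CPM in control and 77.2 and 82.5 after 6 days. In MetaICM EP300 fell against control (−0.74 ± 0.15, adjusted p = 0.00646), and against 3 days of ICM CDKN2A was higher by edgeR (0.62 ± 0.23, adjusted p = 0.0411), a call that DESeq2 did not make. Each is 5.26% of the tested list, where 8.99% of all genes fell against control and 13.1% were higher than after 3 days. The phosphatase gene PPM1D, also a p53 target, was at 0.26 ± 0.16, 0.15 ± 0.14 and 0.28 ± 0.14 against control and was not called.

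SESN2 and GDF15 are known to answer also to ATF4, the transcription factor of the amino acid and endoplasmic reticulum stress response. Of 16 genes of that response, 3 rose and 11 fell after 3 days (median −1.06), and 2 rose and 9 fell after 6 days (median −0.87). The falls are 68.8% and 56.2% of the list, where 13.2% and 17.2% of all genes fell, while the rises, 18.8% and 12.5%, stand beside 8.85% and 13.3% of all genes. The enzymes of serine and asparagine synthesis PSAT1 (−2.31 ± 0.13 and −2.12 ± 0.13) and ASNS (−1.97 ± 0.44 and −2.06 ± 0.43) fell at both times. So did DDIT4 (−1.84 ± 0.20 and −1.13 ± 0.20) and TRIB3 (−1.75 ± 0.21 and −1.96 ± 0.19). ATF3, which p53 also induces, rose (1.78 ± 0.19 and 2.18 ± 0.16), as did SLC7A11 (1.03 ± 0.13 and 1.45 ± 0.12) and, after 3 days, CEBPB (0.79 ± 0.17). ATF4 was at −0.13 ± 0.15 (adjusted p = 0.558) and −0.28 ± 0.13 (adjusted p = 0.103).

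In MetaICM 1 of these 16 rose against control, CHAC1 (0.61 ± 0.18), and 2 fell, VLDLR (−0.86 ± 0.14) and SLC7A11 (−0.68 ± 0.12). Those 6.25% and 12.5% of the list are near the 7.41% and 8.99% of all genes that rose and fell. CHAC1 lies just beyond the fold threshold of 0.6. Against 6 days of ICM 9 were higher in MetaICM, led by EIF4EBP1 (1.79 ± 0.17), CHAC1 (1.77 ± 0.09) and PSAT1 (1.58 ± 0.09), and 4 were lower, led by SLC7A11 (−2.13 ± 0.08) and ATF3 (−2.12 ± 0.10). Against 3 days 10 were higher and 3 lower. Of all genes 15.7% and 13.1% were higher in these comparisons and 12% and 10.3% lower. SESN2 was thus lower in ICM than in control and MetaICM together with most of this list. GDF15 was higher in ICM, against the direction of most of this list, as were ATF3 and SLC7A11. The part of ATF4 in either result was not tested.

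SESN2 is also known as a target of NRF2, the regulator of antioxidant genes. Of 12 genes of that list 11 rose at both times of ICM, with medians of 1.83 and 1.96, led by the haem-degrading enzyme HMOX1 (3.55 ± 0.30 and 4.04 ± 0.31) and by OSGIN1 (3.42 ± 0.23 and 3.94 ± 0.24). The 11 are 91.7% of the list, beside 8.85% and 13.3% of all genes. In MetaICM 0 of the 12 rose or fell against control by edgeR or DESeq2, nor at an unadjusted p under 0.05 (median 0.03). Of all genes 7.41% rose and 8.99% fell there, so 0 of 12 is not far from those shares. Against either ICM condition 11 were lower in MetaICM, or 91.7% of the list. Of all genes 12% were lower against 6 days and 10.3% against 3 days. SESN2 moved opposite to this list, and MDM2 and GDF15 moved with it. What part NRF2 had in any of them was not tested.

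**Figure D5:**
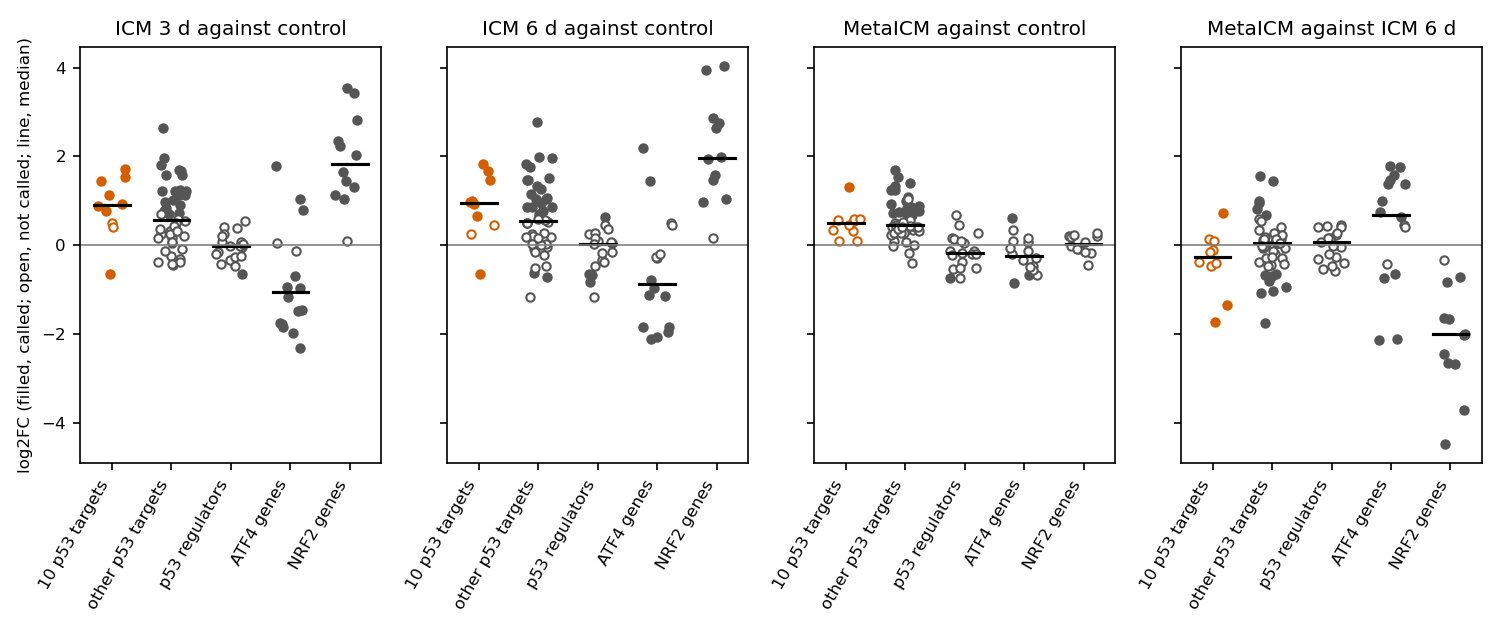
Log2FC of every tested gene of 5 lists in 4 comparisons (points, filled where called; horizontal spread within a list is only for legibility; lines at the median). With ICM both lists of p53 targets and the NRF2 genes lie mostly above 0 and most ATF4 genes below, whereas in MetaICM against control the p53 targets keep a median of 0.49 and 0.46 and the NRF2 genes are at 0.03.

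Likeness of pattern was described by Pearson's r of log2(CPM + 1) over the 8 libraries, among 9283 genes with a mean of at least 10 CPM, where the points share conditions and r carries no test. FDXR was most like BAX (r = 0.996), another p53 target, and TIGAR most like MLF2 (0.998). For MDM2 it was TFB1M (0.996), for SESN2 NIN (0.997), for SESN1 CYB5D2 (0.993), for ZMAT3 ANXA4 (0.992), for FAS PI4K2A (0.989), for GDF15 ID1 (0.988), for TP53I3 ARL3 (0.987) and for TP53INP1 CROT (0.952). So high an r was common with 4 conditions, since 282 genes exceeded 0.95 with MDM2 and 320 with SESN2, but 1 did so with TP53INP1. Among the 10 targets SESN1 and ZMAT3 were most alike (0.979), then FDXR and TIGAR (0.962), and SESN2 was negative with every other, from −0.953 with MDM2 to −0.406 with TP53INP1.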

How the data were processed

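Factory RNA-Seq libraries of IMR90 were analysed from the deposited count tables. The authors aligned read pairs to hg19 (GRCh37) with STAR (2.6.0c per the labels) and deposited raw counts per RefSeq gene over exons from featureCounts (1.6.3 per the file headers), without normalization, without strand and without pairs that map to several places or genes. The study's own nascent values rest on intronic counts, which were not analysed here.

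Each comparison used the 4 libraries of its 2 conditions in edgeR (4.0.16, R 4.3.3): libraries were scaled by TMM, filterByExpr kept genes at a minimum of 10 counts, and p-values of the quasi-likelihood fit were adjusted by Benjamini-Hochberg over all genes tested. Every adjusted p-value is from that test unless DESeq2 (1.42.0) is named. Log2FC are given ± standard error, taken as the size of the log2FC divided by the square root of the quasi-likelihood F. That test shares variance across genes, so the error is not the spread of a gene's own libraries alone. Alternatives were DESeq2, its size factors, library totals, 2 other filters, all 8 libraries in 1 fit, the replicate number as a block, an adjusted p-value of 0.01 and each library left out in turn. The fits were tested on simulated data.

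All 10 targets are given in every comparison. Of each other list, at most the 3 called genes with the largest log2FC in each direction are named, beside CDKN1A, MDM4, PPM1D and the genes set beside a target. A further gene of that rule is not reported here. The targets and lists were chosen with earlier results of these data known. Sequences are from GRCh37, and Python 3.11.15 was used for counting matches.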

Additional observations from a re-analysis of the deposited data

Results flagged for a closer look

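The 3-day and 6-day effects of ICM were compared by the edgeR test of 6 days against 3 days, in which TP53I3 passed both thresholds and GDF15 the adjusted p-value alone. TP53I3 was lower at 6 days, with a log2FC of −0.69 ± 0.10 (adjusted p = 8.91e-05), and both 6-day libraries lay below both 3-day libraries. GDF15 was higher at 6 days, with a log2FC of 0.39 ± 0.11 (adjusted p = 0.0209), under the fold threshold of 0.6, and in the fit of all 8 libraries it was 0.40 with an adjusted p of 0.491. Without ICM 3 days replicate 1, the higher of its pair, the GDF15 value was 0.64 and was called, and without replicate 2 it was 0.19.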

How the results depend on the processing

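Of 894 values recomputed under alternatives, 854 kept their direction and their side of the thresholds or, for counts and medians, stayed near the reported value, and all 66 medians moved by less than the spread between replicates. Scaling to library totals left 0 targets called lower at 3 and at 6 days, since SESN2 went to −0.59. Targets called higher in MetaICM against control numbered 3 with DESeq2, 4 with library totals and 4 with all genes that had a count. With each library left out in turn, where the lone library is assumed to vary like the other condition, targets called lower at 6 days ranged from 0 to 1 (0 without ICM 6 days replicate 2), those higher in MetaICM against control from 1 to 3, and those higher at 6 than at 3 days from 0 to 1. With library totals the signs turned for SESN2 between 6 and 3 days (−0.0047) and for FAS between MetaICM and 3 days (−0.0092). Leaving out a library gave GDF15 in MetaICM against control −0.57 to 1.53 (−0.024 without MetaICM replicate 2), TIGAR between 6 and 3 days −0.057 to 0.16 (−0.0063 without ICM 6 days replicate 2) and SESN2 there −0.036 to 0.077. None of these sign changes involved a called value in the analysis as reported, and their causes were not tested. GDF15 lost its calls at 3 and 6 days with DESeq2 and the one at 3 days at an adjusted p-value of 0.01. Library totals also moved the share of rises among all called genes at 3 days from 40.2% to 50.3%.

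The deviations of same-numbered libraries correlated between conditions with r from −0.16 (ICM 3 days with MetaICM) to 0.27 (control with ICM 3 days). Whether the replicate number pairs libraries of different conditions was not tested. With the number as a replicate block 7 targets still rose and 1 fell at 3 and at 6 days, and the block changed no call of any target. With 2 libraries per condition a single library can decide a value, as for GDF15.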
